A study of Mus musculus with 18 samples.

Results

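The genes Esr1, Pgr, Nr3c1, Nr3c2, Tsc22d3, and Fkbp5 of steroid hormone signaling were followed in brown preadipocytes treated with FGF6, a fibroblast growth factor. The first 4 encode receptors, and the last 2 are glucocorticoid target genes. They are 6 of the 48023 genes in the count table, found by matching Ensembl identifiers to symbols, and they were chosen by their place in this pathway and partly by the strong fall of Esr1 with FGF6 in these libraries. The fall of Esr1 is therefore described here without a test. The cells were mouse brown preadipocytes immortalized with a viral T antigen, treated with vehicle (Veh) or FGF6 for 4, 8, or 24 h in growth medium with fetal bovine serum. Each of the 6 groups had 3 libraries, 18 in all, and the labels do not say whether these came from separate cultures, so the p-values measure only the spread between these libraries. The labels name no steroid hormone in the treatment, and the hormone content of the serum is not given in the sources used here.

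Steroid hormone receptors are transcription factors that are switched on by a ligand that crosses the cell membrane. Without ligand, the glucocorticoid, mineralocorticoid, and progesterone receptors are held ready by Hsp90 and its cochaperones, and with ligand they bind DNA as pairs and change transcription of nearby genes. In fat, glucocorticoids are a classical component of the cocktail that differentiates preadipocytes, the mineralocorticoid receptor is known to promote adipogenesis, and estrogen receptor alpha is known to restrain fat mass. Fkbp5 and Tsc22d3 are used in many tissues as readouts of glucocorticoid receptor activity.

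Raw counts per library summed to between 24327816 and 33471980, and values are given as CPM (counts scaled to the library total) scaled by TMM normalization factors of 0.951 to 1.05. Of the 48023 genes, 15071 had enough counts for a test, among them 5 of the 6 genes described here. Only Pgr was too low. Differences were tested with edgeR's quasi-likelihood test in one fit to all 18 libraries, with Benjamini-Hochberg adjustment over all 15071 genes and a call at an adjusted p under 0.05. The response to FGF6 was broad: 62.8% of the genes tested were called at 4 h (28.6% higher, 34.2% lower), 70.8% at 8 h (32.4% higher, 38.4% lower), and 73.8% at 24 h (35.9% higher, 37.9% lower). All 4 tested genes other than Esr1 were called at each time, and this count has to be read against those shares.

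The label of the cells was checked against marker genes. Of 6 brown precursor markers, 4 were tested, and Lhx8 and Zic1 were too low for a test. The summed level of the 6 was between 193 and 198 CPM in vehicle and between 157 and 162 with FGF6 at 24 h. There 3 of the 4 were lower and Prdm16, a regulator of brown fat identity, was higher (log2 fold change 0.59, edgeR adjusted p = 2.47e-06). Of 8 preadipocyte and stromal markers, 7 were tested and only Dlk1 was at 0 in all libraries. The summed level of these 8 was between 3930 and 4120 CPM in vehicle and between 2440 and 2590 with FGF6 at 4 h, between 5450 and 5740 and between 2910 and 3100 at 8 h, and between 5970 and 6400 and between 1410 and 1480 at 24 h. Cd34 went against the sum and was higher at 24 h (log2 fold change 1.38, adjusted p = 9.69e-14), while the other 6 were lower. Prdm16 and Cd34 are named after their values were seen. The 7 mature adipocyte markers summed to between 265 and 291 CPM in vehicle and between 90.2 and 98.3 with FGF6 at 24 h, with Lep at 0 throughout and Adipoq at no more than 0.612 CPM on average in any group. The sums of 5 markers each reached at most 0.151 CPM for immune, 5.73 for endothelial, 2.57 for epithelial, 6.28 for neural, and 16.3 for skeletal muscle cells, and the highest endothelial and epithelial sums were in FGF6-treated libraries. These shifts moved with FGF6 and thus with every contrast below, and their part in the results was not tested. In bulk RNA, fewer cells expressing a gene and less RNA per cell cannot be told apart.

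**Figure D1:**
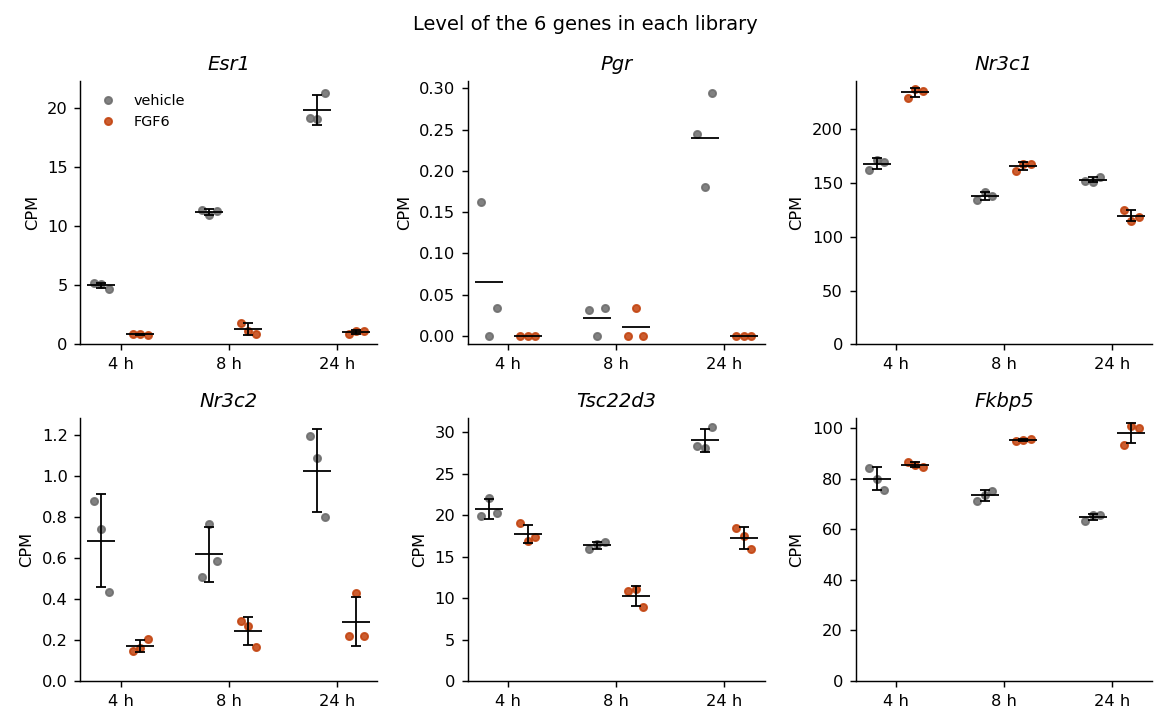
CPM of each of the 6 genes in each library at 4, 8, and 24 h, with vehicle in grey and FGF6 in orange. Points are libraries and black bars are the mean ± SD of 3 libraries (mean only for Pgr). Esr1 climbed in vehicle and stayed below 2 CPM with FGF6, Nr3c1 changed sides between 8 and 24 h, and Fkbp5 and Tsc22d3 moved apart.

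Esr1 encodes estrogen receptor alpha, the main mediator of estrogen action in fat. The gene (ENSMUSG00000019768) lies on the plus strand of chromosome 10 at positions 4611593 to 5005614 of GRCm38. In vehicle-treated cells Esr1 was at 5.16, 5.07, and 4.71 CPM at 4 h, at 11.3, 10.9, and 11.3 CPM at 8 h, and at 19.1, 19.0, and 21.2 CPM at 24 h. With FGF6 it was at 0.850, 0.861, and 0.813 CPM at 4 h, at 1.82, 1.08, and 0.863 CPM at 8 h, and at 0.875, 1.11, and 1.14 CPM at 24 h. The groups did not overlap at any time: the highest FGF6 library lay below the lowest vehicle library by a wide margin. Because Esr1 was chosen for its fall in these libraries, this separation is a description only.

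The log2 fold change of Esr1 with FGF6 was -2.56 at 4 h (SE 0.17), -3.12 at 8 h (SE 0.14), and -4.24 at 24 h (SE 0.14), or 5.88-, 8.69-, and 18.9-fold lower. These are the values for which the gene was chosen, and no test is attached to them. The widening gap came mostly from the vehicle side. Vehicle levels rose by 1.16 on the log2 scale from 4 to 8 h and by 0.82 from 8 to 24 h, whereas FGF6-treated cells stayed between 0.813 and 1.82 CPM. The highest of those values belonged to FGF6 replicate 1 at 8 h, with 56 counts against 32 and 21 in its replicates, and without it the log2 fold change at 8 h was -3.51.

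RefSeq lists 2 starts for Esr1 in its promoter table for GRCm38.p6. The 250 bases before each are shown because Esr1 carried the largest change among the members. The windows were searched on both strands for AGAACA (the arm of a glucocorticoid response element), for GGTCA (the arm of an estrogen response element), for each arm followed by any 3 bases and its reverse complement (the full elements), and for the AP-1 motif TGANTCA. Any match would be in capitals, and neither Esr1 window, on the plus strand at chr10:4611739-4611988 and at chr10:4709908-4710157, held one.
Esr1 start 1: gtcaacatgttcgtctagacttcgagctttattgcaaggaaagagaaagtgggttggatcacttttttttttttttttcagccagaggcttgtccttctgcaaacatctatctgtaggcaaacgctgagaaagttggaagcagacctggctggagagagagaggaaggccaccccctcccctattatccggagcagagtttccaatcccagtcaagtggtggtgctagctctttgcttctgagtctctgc
Esr1 start 2: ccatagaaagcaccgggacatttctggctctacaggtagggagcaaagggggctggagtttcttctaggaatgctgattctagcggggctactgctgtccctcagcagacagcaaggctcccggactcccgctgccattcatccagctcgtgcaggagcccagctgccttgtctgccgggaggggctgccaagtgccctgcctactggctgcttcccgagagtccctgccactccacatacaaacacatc
Among 32851 promoters of the same length, 16.1% held AGAACA, 35.2% held GGTCA, 6.75% held the AP-1 motif, 0.00913% held the full glucocorticoid element, and 0.0639% held the full estrogen element. The absence of these letters says nothing about elements outside the windows.

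Pgr encodes the progesterone receptor and is a textbook target gene of estrogen receptor alpha. It lies on the plus strand of chromosome 9 at positions 8899833 to 8968611. Pgr was close to undetectable: vehicle libraries had 5, 0, and 1 counts at 4 h, 1, 0, and 1 at 8 h, and 7, 6, and 7 at 24 h. FGF6 libraries had 0 counts in all 3 at 4 h, 0, 1, and 0 at 8 h, and 0 in all 3 at 24 h. At 24 h, 20 counts in vehicle faced 0 with FGF6, and at 4 h 6 counts, 5 of them in 1 library, faced 0. The floor was set at 3 counts over the 3 FGF6 libraries together, and the vehicle counts were taken as exact. Pgr was then at least 6.45-fold lower at 24 h and at least 1.78-fold lower at 4 h. An exact permutation test on CPM gave a two-sided p of 0.1 at 24 h, the smallest that 3 against 3 libraries allow, and of 0.4 at 4 h. In a fit without the filter on low counts, over 28614 genes, edgeR gave an adjusted p of 0.000683 at 24 h, 0.0736 at 4 h, and 0.866 at 8 h. Intervals and floors of this kind cover counting error only, and this floor covers only that of the FGF6 libraries.

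Nr3c1 encodes the glucocorticoid receptor (chromosome 18, minus strand, positions 39410545 to 39519421) and was the most abundant of the nuclear steroid receptors in these cells. In vehicle it was at 162, 172, and 170.1 CPM at 4 h, at 134.5, 141, and 138 CPM at 8 h, and at 152, 151, and 156 CPM at 24 h. With FGF6 it was at 229, 238, and 236 CPM at 4 h, at 161, 168, and 167 CPM at 8 h, and at 125, 115, and 119 CPM at 24 h. FGF6 libraries thus lay above all vehicle libraries at 4 and 8 h and below all of them at 24 h.

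Nr3c1 rose with FGF6 by a log2 fold change of 0.48 at 4 h (SE 0.03, edgeR adjusted p = 5.57e-12) and of 0.26 at 8 h (SE 0.04, adjusted p = 2.57e-07). At 24 h it fell, with a log2 fold change of -0.36 (SE 0.04, adjusted p = 1.35e-09). The effect of FGF6 was smaller at 8 h than at 4 h (difference -0.22, adjusted p = 0.00126) and lower again at 24 h than at 8 h (difference -0.62, adjusted p = 1.56e-10). Such differences between times were called for 30.6% and 45.1% of the genes tested. Within FGF6-treated cells Nr3c1 fell by 0.50 from 4 to 8 h (adjusted p = 7.2e-12) and by 0.47 from 8 to 24 h (adjusted p = 1.6e-11), contrasts in which 48.2% and 62.3% of the genes tested were called. In vehicle it fell by 0.28 from 4 to 8 h (adjusted p = 2.56e-07) and then rose by 0.15 (adjusted p = 0.000924), where the shares called were 43% and 49.2%. The later rise was not called when library sizes alone set the scale (log2 change 0.07, adjusted p = 0.083).

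Nr3c2 encodes the mineralocorticoid receptor, which binds glucocorticoids as well as aldosterone. It lies on the plus strand of chromosome 8 at positions 76899442 to 77245012, and 247 of its 6474 exonic bases are shared with Gm10649 on the other strand. The counts per library were low, at 27, 24, and 13 in vehicle against 4, 5, and 5 with FGF6 at 4 h, at 16, 24, and 17 against 9, 8, and 4 at 8 h, and at 34, 36, and 19 against 6, 12, and 6 at 24 h. Every FGF6 library was below every vehicle library of its time, also in CPM. Nr3c2 fell with FGF6 by 2.00 on the log2 scale at 4 h (SE 0.41, edgeR adjusted p = 0.00015), by 1.31 at 8 h (SE 0.38, adjusted p = 0.00393), and by 1.82 at 24 h (SE 0.35, adjusted p = 4.8e-05).

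For Nr3c2, no difference between the effects at different times passed the test, at this depth: 0.69 between 8 and 4 h (SE 0.59, adjusted p = 0.425) and -0.51 between 24 and 8 h (SE 0.55, adjusted p = 0.481). A rise in vehicle from 8 to 24 h, by 0.74 on the log2 scale, passed narrowly (adjusted p = 0.0428) and was lost with DESeq2 (adjusted p = 0.1), with library sizes alone, with upper-quartile factors, without the filter, and without any of 4 single libraries, vehicle replicates 1 and 2 at 24 h and 1 and 3 at 8 h (adjusted p between 0.0988 and 0.142).

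Since the 2 corticosteroid receptors moved in opposite directions at 4 and 8 h, their relative level per kb of exon changed. In vehicle, Nr3c1 was on average 227 times the level of Nr3c2 at 4 h, 194 times at 8 h, and 130 times at 24 h. With FGF6 the ratio was 1180 at 4 h, 616 at 8 h, and 388 at 24 h. The ranges over libraries did not overlap at any time, with 108 to 164 in vehicle and 226 to 482 with FGF6 at 24 h, and they rest on the low counts of Nr3c2.

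Tsc22d3 encodes GILZ, a leucine zipper protein induced by glucocorticoids that is known to hold back inflammatory transcription factors and adipocyte differentiation. It lies on the minus strand of chromosome X at positions 140539528 to 140600659. In vehicle it was at 19.9, 22.1, and 20.3 CPM at 4 h, at 15.9, 16.5, and 16.8 CPM at 8 h, and at 28.3, 28.1, and 30.7 CPM at 24 h. With FGF6 it was at 19.0, 16.9, and 17.4 CPM at 4 h, at 10.8, 11.1, and 8.88 CPM at 8 h, and at 18.5, 17.5, and 15.9 CPM at 24 h. The FGF6 libraries were lower than all vehicle libraries at each time, narrowly at 4 h and clearly later.

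Tsc22d3 fell by 0.67 on the log2 scale at 8 h (SE 0.08, edgeR adjusted p = 4.66e-08) and by 0.75 at 24 h (SE 0.07, adjusted p = 6.82e-10). At 4 h the log2 fold change was -0.23 (SE 0.07, adjusted p = 0.00863). That call was lost without FGF6 replicate 2 (log2 fold change -0.15, adjusted p = 0.122), without FGF6 replicate 3 (-0.18, adjusted p = 0.062), or without vehicle replicate 2 (-0.18, adjusted p = 0.06). The effect was stronger at 8 h than at 4 h (difference -0.44, adjusted p = 0.00263), while the effects at 24 and 8 h did not pass a test of their difference (-0.08, SE 0.11, adjusted p = 0.604). Both treated and vehicle cells moved together in time: Tsc22d3 fell from 4 to 8 h in each (by 0.78 with FGF6, adjusted p = 9.98e-09, and by 0.34 in vehicle, adjusted p = 0.000385) and rose from 8 to 24 h in each (by 0.75 with FGF6, adjusted p = 1.22e-08, and by 0.82 in vehicle, adjusted p = 5.84e-10).

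Fkbp5 encodes FKBP51, an Hsp90 cochaperone that is induced by glucocorticoids and lowers the affinity of their receptor for hormone. It lies on the minus strand of chromosome 17 at positions 28399094 to 28517527. In vehicle it was at 84.5, 80.1, and 75.5 CPM at 4 h, at 71.3, 73.8, and 75.3 CPM at 8 h, and at 63.5, 65.7, and 65.5 CPM at 24 h. With FGF6 it was at 86.8, 85.3, and 84.8 CPM at 4 h, at 95.1, 95.4, and 95.7 CPM at 8 h, and at 93.5, 100.9, and 100.2 CPM at 24 h. The groups nearly touched at 4 h and were well apart from 8 h on.

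Fkbp5 rose with FGF6 by a log2 fold change of 0.38 at 8 h (SE 0.04, edgeR adjusted p = 5.09e-09) and of 0.60 at 24 h (SE 0.04, adjusted p = 7.62e-13). At 4 h the log2 fold change was 0.10 (SE 0.04, adjusted p = 0.0356), but it was -0.004 when library sizes alone set the scale (adjusted p = 0.932), and it was not called with upper-quartile factors (0.04, adjusted p = 0.413) or without vehicle replicate 2 or 3 (adjusted p = 0.0693 and 0.236). The effect grew from 4 to 8 h (difference 0.28, adjusted p = 0.000411) and from 8 to 24 h (difference 0.22, adjusted p = 0.00238). Within FGF6-treated cells Fkbp5 rose by 0.16 from 4 to 8 h (adjusted p = 0.00194), and its change from 8 to 24 h was 0.04 and not called (adjusted p = 0.369). In vehicle-treated cells Fkbp5 fell by 0.12 from 4 to 8 h (adjusted p = 0.0132) and by 0.18 from 8 to 24 h (adjusted p = 0.000699). The first of these falls was not called with library sizes alone (adjusted p = 0.052) or without vehicle replicate 1 at 4 h or at 8 h (adjusted p = 0.119 and 0.0699).

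**Figure D2:**
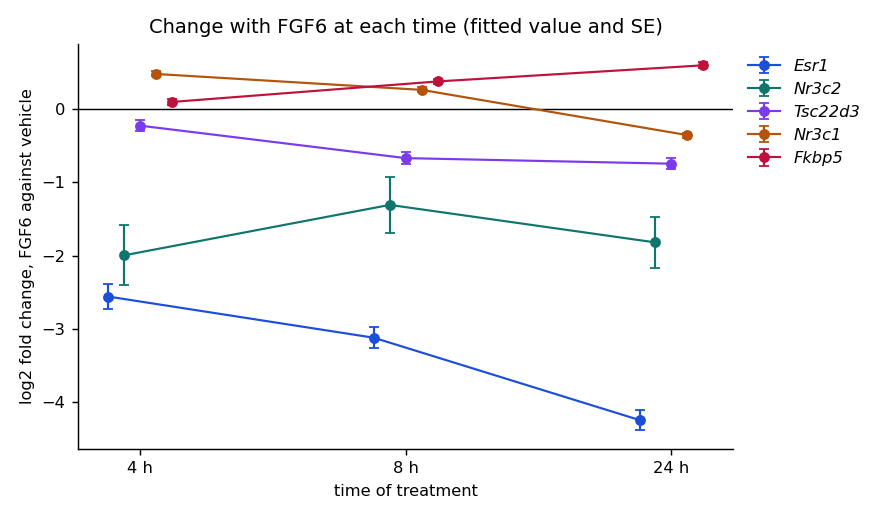
Fitted log2 fold change of FGF6 against vehicle at 4, 8, and 24 h for the 5 genes with enough counts, with the SE as bars and the horizontal line at no change. Esr1 went from -2.56 to -4.24, Nr3c1 crossed from 0.48 to -0.36, and Tsc22d3 and Fkbp5 ended at -0.75 and 0.60.

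The pair of glucocorticoid targets thus went in opposite directions in the same libraries. Per kb of exon, Fkbp5 was 1.77 ± 0.153 times the level of Tsc22d3 in vehicle and 2.21 ± 0.114 times with FGF6 at 4 h (SD, n = 3). At 8 h the ratio was 2.05 ± 0.00316 in vehicle and 4.31 ± 0.549 with FGF6. At 24 h it was 1.03 ± 0.0464 in vehicle and 2.62 ± 0.287 with FGF6. The libraries of each pair of groups did not overlap. A ratio of this kind does not depend on the scaling of a library.

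The RefSeq promoter windows of these targets are shown because both genes are known as direct targets of the same receptor. Tsc22d3 has 3 starts in the table. The window of its start farthest upstream, on the minus strand at chrX:140600523-140600772, held 1 match to AGAACA, at position -185 from the start, and 1 match to GGTCA, at position -144. Both are in capitals, the former as its reverse complement TGTTCT.
Tsc22d3 start 1: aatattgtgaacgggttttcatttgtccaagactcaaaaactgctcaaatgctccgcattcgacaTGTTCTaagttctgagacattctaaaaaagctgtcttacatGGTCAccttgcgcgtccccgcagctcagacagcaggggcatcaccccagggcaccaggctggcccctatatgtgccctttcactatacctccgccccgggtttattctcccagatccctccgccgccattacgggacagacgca
Fkbp5 start 1: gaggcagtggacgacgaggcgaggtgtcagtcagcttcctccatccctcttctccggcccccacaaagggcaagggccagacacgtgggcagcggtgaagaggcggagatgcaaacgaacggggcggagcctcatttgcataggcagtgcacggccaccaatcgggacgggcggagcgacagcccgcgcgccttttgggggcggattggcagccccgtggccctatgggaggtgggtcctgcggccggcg
The Fkbp5 window, on the minus strand at chr17:28486150-28486399, held none of the motifs. Of the 8 windows of 5 genes searched (none for Nr3c1), only that of Tsc22d3 held AGAACA, 3 held GGTCA (Nr3c2 and 2 of Tsc22d3), and none held a full element or the AP-1 motif. With GGTCA in 35.2% of all windows and AGAACA in 16.1%, these matches are a description of the letters only.

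The 4 receptor genes were placed beside the other 8 steroid and estrogen-related receptor genes, of which 6 were tested. At 4 h, 2 of these 6 were higher and 4 lower, at 8 h 1 was higher and 4 lower, and at 24 h none was higher and 5 were lower. These contrasts called 34.2%, 38.4%, and 37.9% of all genes lower and 28.6%, 32.4%, and 35.9% higher. The median log2 fold changes of the 6 were -0.29, -0.42, and -0.73, against -0.05, -0.05, and -0.02 over all genes tested. None of the 6 was higher at 24 h at an unadjusted p under 0.05 by edgeR, and none of all tested receptors was called higher there by DESeq2.

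Esr2, which encodes estrogen receptor beta, was at 1.71 ± 0.157 CPM in vehicle and 0.773 ± 0.174 with FGF6 at 24 h (SD, n = 3). It fell at 4, 8, and 24 h, with log2 fold changes of -1.08, -1.20, and -1.15 (edgeR adjusted p = 0.000783, 0.000126, and 0.000166). Like Esr1 and Nr3c2, it is a receptor gene of low level.

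Pgrmc1 and Pgrmc2 encode membrane-associated progesterone receptor components, heme-binding proteins unrelated to Pgr in structure. Pgrmc1 fell at the same times (log2 fold changes -0.40, -0.71, and -0.80, adjusted p = 4.97e-11, 3.7e-16, and 1.46e-17), and so did Pgrmc2 (-0.19, -0.14, and -0.67, adjusted p = 5.87e-05, 0.000895, and 7.18e-15). Esrra, an orphan receptor that takes no estrogen, rose at 4 and 8 h by 0.71 and 0.86 (adjusted p = 1.72e-11 and 3.87e-13) and was at 36.1 ± 2.74 CPM in vehicle and 37.5 ± 2.33 with FGF6 at 24 h (log2 fold change 0.05, adjusted p = 0.404). Gper1, a membrane estrogen receptor, rose by 0.47 at 4 h (adjusted p = 3.8e-06), was not called at 8 h (0.12, adjusted p = 0.174), and fell by 0.21 at 24 h (adjusted p = 0.0174). Of the 3 receptor genes that rose at 4 h (Nr3c1, Esrra, and Gper1), none was higher by the test at 24 h.

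Levels of the receptor genes named here were compared per kb of exon. In vehicle at 24 h the order was Pgrmc1 (138), Pgrmc2 (59.9), Nr3c1 (19.9 ± 0.289), Esrra (8.23), Gper1 (5.01), Esr1 (1.45 ± 0.0911), Esr2 (0.509 ± 0.0466), Nr3c2 (0.158 ± 0.0314), Esrrg (0.0497), and Pgr (0.0281 ± 0.00665) CPM per kb, with Esrrb at 0. With FGF6 at 24 h the first 5 kept their order, and Esr1 at 0.0761 ± 0.0105 CPM per kb stood below Esr2 at 0.229 ± 0.0518. Nr3c2 was then at 0.0447 ± 0.0187 CPM per kb. The ranges of mean ± SD of Esr1 and Esr2 overlapped in vehicle at 4 h, at 0.364 ± 0.0174 and 0.407 ± 0.0419 CPM per kb, before Esr1 rose above Esr2 in vehicle.

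**Figure D3:**
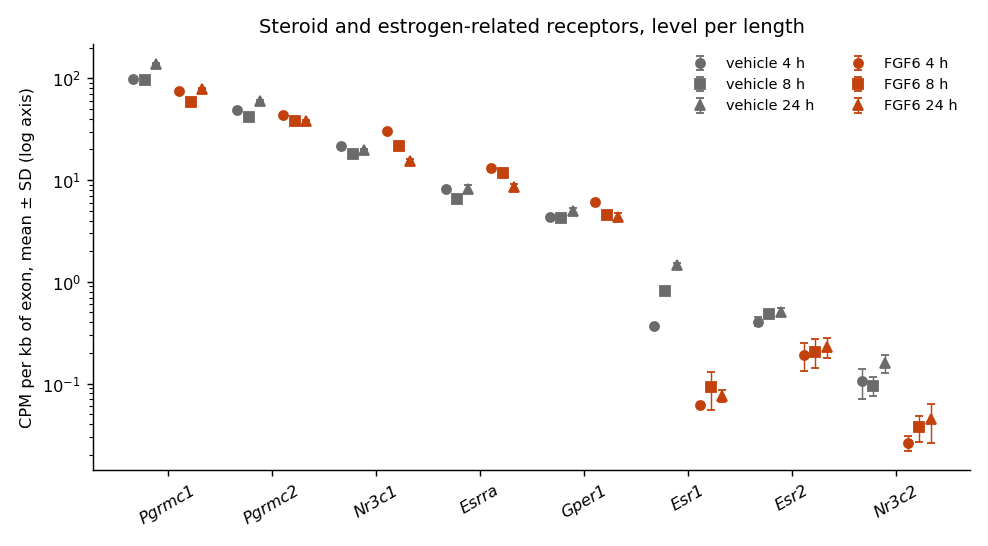
Level per kb of exon (CPM per kb, log axis) of 8 tested steroid and estrogen-related receptor genes, with vehicle in grey and FGF6 in orange and circles, squares, and triangles for 4, 8, and 24 h. Points are means and bars the SD of 3 libraries. Esr1 passes from above Esr2 in vehicle at 24 h (1.45 against 0.509) to below it with FGF6 (0.0761 against 0.229).

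Beyond Tsc22d3 and Fkbp5, a list of 24 further genes known to be induced by glucocorticoids was examined, of which 20 were tested. Of these, 10 were higher and 6 lower at 4 h, 10 and 6 at 8 h, and 8 and 11 at 24 h, where 62.8%, 70.8%, and 73.8% of all genes were called in either direction. The medians were 0.18, 0.12, and -0.31 (log2), against -0.05, -0.05, and -0.02 over all genes. Many of these genes respond to other signals as well.

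Among genes of the list with a mean of at least 1 CPM, the largest rises were those of Sgk1, a kinase that acts on ion channels, and of Errfi1, a feedback inhibitor of the EGF receptor. Sgk1 went from 159 ± 0.775 to 856 ± 15.8 CPM at 4 h, from 83.2 ± 5.66 to 669 ± 13.3 at 8 h, and from 62.6 ± 2.45 to 310 ± 11.9 at 24 h (SD, n = 3). This was 5.37-, 8.04-, and 4.94-fold higher (edgeR adjusted p = 2.12e-24, 3.43e-26, and 1.86e-24). Errfi1 was 4.41-, 5.06-, and 3.88-fold higher (adjusted p = 9.76e-25, 1.05e-25, and 1.14e-24).

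The largest falls among the same genes were those of Klf15, a transcription factor of amino acid and lipid metabolism, and of Lpin1, a phosphatidate phosphatase of triglyceride synthesis. Klf15 was at 7.19 ± 0.483 CPM in vehicle and 1.25 ± 0.0738 with FGF6 at 24 h (log2 fold change -2.52, adjusted p = 6.71e-15). Lpin1 was at 24.6 ± 1.37 CPM in vehicle and 4.28 ± 0.417 with FGF6 at 8 h (log2 fold change -2.52, adjusted p = 1.59e-17). Per1, a clock gene, fell by 0.42 at 4 h (adjusted p = 1.38e-06) and by 0.51 at 24 h (adjusted p = 2.18e-08). Dusp1, a phosphatase of MAP kinases, fell by 0.73 at 24 h (adjusted p = 7.84e-06), had overlapping groups at 4 h (-0.41, adjusted p = 0.00728), and was not called at 8 h (-0.25, adjusted p = 0.0951).

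The metallothionein genes Mt1 and Mt2, which encode metal-binding proteins, were higher at 4 h and lower at 24 h. Mt1 rose by 0.26 at 4 h (adjusted p = 3.64e-07), was not called at 8 h (0.015, adjusted p = 0.711), and fell by 0.57 at 24 h (adjusted p = 1.2e-13). Mt2 rose by 0.40 at 4 h (adjusted p = 4.96e-08), was not called at 8 h (0.10, adjusted p = 0.0675), and fell by 0.68 at 24 h (adjusted p = 2.63e-12), with 432 of its 588 exonic bases shared with Gm45774 on the other strand. Klf9, a transcription factor induced early by glucocorticoids, rose at 8 h (0.32, adjusted p = 2.05e-06) and was not called at 4 h (0.10, adjusted p = 0.0604) or 24 h (-0.07, adjusted p = 0.22). Zbtb16, a glucocorticoid target in many cell types, had 1 count in the 18 libraries together.

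Chaperone genes of the Hsp90 machinery that holds the receptors were mostly higher with FGF6. Of 16 chaperone and cochaperone genes other than Fkbp5, all tested, 11 were higher and 2 lower at 4 h, 13 higher and 1 lower at 8 h, and 15 higher and 1 lower at 24 h, while 28.6%, 32.4%, and 35.9% of all genes were higher at these times. The medians were 0.20, 0.46, and 0.64 on the log2 scale, against -0.05, -0.05, and -0.02 over all genes. The fold change of Fkbp5 lay below these medians at each time.

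Fkbp4, which encodes FKBP52, the cochaperone that opposes FKBP51 on the receptor, went from 281 ± 9.22 CPM in vehicle to 655 ± 23.9 with FGF6 at 24 h (SD, n = 3). Its log2 fold change was 0.34 at 4 h, 0.79 at 8 h, and 1.22 at 24 h (edgeR adjusted p = 5.99e-10, 2.11e-17, and 1.71e-21). The Hsp90 genes Hsp90aa1 and Hsp90ab1 were 2.02- and 2.04-fold higher at 24 h (adjusted p = 2.49e-18 and 1.41e-23). Ppid, the cochaperone cyclophilin 40, rose by 0.92 at 24 h (adjusted p = 1.2e-15). Stub1, a ubiquitin ligase that marks chaperone clients, was the gene that was lower at 24 h (-0.31, adjusted p = 2.16e-05), named after its value was seen. Of the 2561 exonic bases of Stub1, 1084 are shared with genes on the other strand.

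**Figure D4:**
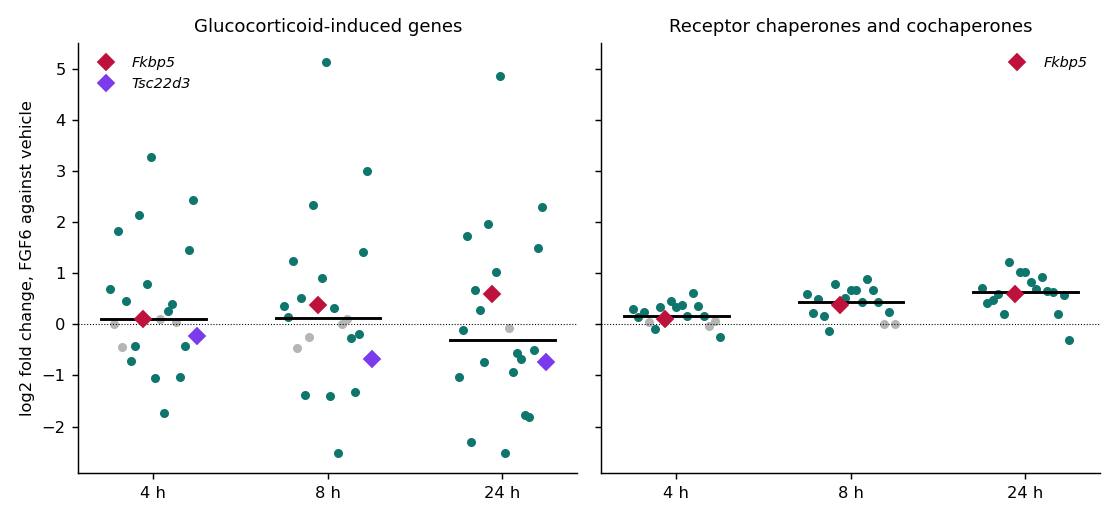
Log2 fold change of FGF6 against vehicle at 4, 8, and 24 h for each tested gene of the lists of glucocorticoid-induced genes (left) and of receptor chaperones and cochaperones (right). Points are genes, teal at an adjusted p under 0.05 and grey otherwise, diamonds mark Fkbp5 and Tsc22d3, and black lines are list medians. Glucocorticoid-induced genes spread to both sides, whereas chaperone genes lie mostly above 0. The topmost points on the left are Hif3a, whose vehicle libraries held 0 to 6 counts, so that its plotted values depend on the fit.

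Of 18 estrogen and progesterone response genes other than Pgr, 11 were tested. At 4 h 5 were higher and 5 lower, and at 8 and 24 h 3 were higher and 7 lower, with medians of -0.04, -0.36, and -0.59 on the log2 scale. The all-gene medians were -0.05, -0.05, and -0.02, and the shares of all genes called higher and lower were 28.6% and 34.2% at 4 h, 32.4% and 38.4% at 8 h, and 35.9% and 37.9% at 24 h. Fkbp4, Nrip1, and Rara are each on another of the lists as well. Among its genes with a mean of at least 1 CPM, the largest fall was that of Cxcl12, a chemokine, from 1636 ± 47.7 CPM in vehicle to 70.3 ± 7.92 with FGF6 at 24 h (log2 fold change -4.54, edgeR adjusted p = 6.71e-27). Gata3, a transcription factor, fell by 3.60 at 24 h (adjusted p = 2.63e-13).

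On the other side stood Areg, an EGF receptor ligand, and Ccnd1, which encodes cyclin D1. Areg was at 0.296 ± 0.0777 CPM in vehicle and 85.9 ± 2.35 with FGF6 at 24 h (log2 fold change 8.12, adjusted p = 3.87e-27). Ccnd1 was at 50.6 ± 6.43 CPM in vehicle and 529 ± 27.7 with FGF6 (log2 fold change 3.39, adjusted p = 2.04e-23). Of the 4709 exonic bases of Ccnd1, 1100 are shared with LTO1 on the other strand. Nrip1, a corepressor that is a classical estrogen target, rose at 4 h by 0.26 (adjusted p = 7.65e-05) and had 0.06 and 0.03 at 8 and 24 h (adjusted p = 0.269 and 0.648). Greb1, another classical estrogen target, had at most 8 counts in any library and was not tested.

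The genes whose log2 CPM ran most like that of each member over the 18 libraries were found among 12298 genes with a mean of at least 1 CPM (12299 for Nr3c2, which is below that level itself). All points share libraries and treatment, so the values are a description. For Esr1 they were Scrn1, Mxra8, and Dglucy (Pearson's r 0.988, 0.987, and 0.986). For Nr3c1 they were Arap1, Tmbim1, and Stx6 (0.981, 0.978, and 0.977), and for Nr3c2 they were Ptov1, Zdhhc1, and Commd9 (0.951, 0.949, and 0.945). For Tsc22d3 they were Sik1, Gsk3b, and Dusp18 (0.968, 0.960, and 0.957). For Fkbp5 they were Rcor2, Hsph1, and Grk6 (0.980, 0.976, and 0.972), of which Hsph1 encodes a further heat shock protein.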

How the data were processed

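RNA of 18 libraries of immortalized mouse brown preadipocytes, 3 for each of vehicle and FGF6 at 4, 8, and 24 h, was sequenced. Raw counts, which the authors deposited without normalization, came from alignment to GRCm38 by STAR and counting by featureCounts of Subread. Versions, the strand setting, and the handling of reads with several matches are not given in the sources used here, so genes that overlap another on the other strand are uncertain. Groups and replicate numbers came from the labels.

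From the deposited counts, genes were kept with filterByExpr, scaled with TMM, and tested with edgeR 4.0.16 in R 4.3.3 (quasi-likelihood test on 6 group means, no covariates, Benjamini-Hochberg adjustment). The study called genes with limma at a false discovery rate of 0.25. That combination was not run: limma was run at 0.05, and 0.25 was applied to the edgeR fit only. Each SE was taken from the log2 fold change and its F statistic. CPM used TMM-scaled library totals. For a fold against a group with 0 counts, 3 counts over its libraries together were taken as the floor. Symbols, positions, and exon lengths came from GENCODE (98.3% of identifiers matched), promoters from RefSeq (GRCm38.p6). The fit was also run on simulated counts in which few genes changed, and only at 24 h. Such a run does not show how the fit behaves under a response as broad as this one.

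The members and gene lists were chosen with earlier results of these data known. Named were all members, the tested receptor genes, up to 4 genes per list with the largest change among those called, at 1 CPM or more and with no overlap, a fixed set of classical targets (Per1, Dusp1, Sgk1, Zbtb16, Klf9, Mt1, Mt2, Hsd11b1, Akr1c18, Greb1, Fkbp4, Nrip1, Hsp90aa1), and the 3 genes closest in pattern to each member. Of these, 1 receptor and 1 coregulator gene are not reported here. Alternatives were limma 3.58.1 with voom, DESeq2 1.42.0, upper-quartile factors or library sizes alone in place of TMM, a minimum of 10 counts per library or none, fits to the compared times, the replicate number as a block, and leaving out each library.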

Additional observations from a re-analysis of the deposited data

Results flagged for a closer look

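The results below were singled out, 5 in all, because the effect of FGF6 differed between times by an edgeR test of the difference itself. Such differences were called for 30.6% of all genes tested between 4 and 8 h and for 45.1% between 8 and 24 h. The 5 have to be read against those shares. Neither difference passed for Nr3c2, that between 24 and 8 h did not pass for Tsc22d3, and Esr1 was left out. For Nr3c1 the effect at 8 h minus that at 4 h was -0.217 on the log2 scale (SE 0.049, edgeR adjusted p = 0.00126), and the effect at 24 h minus that at 8 h was -0.617 (SE 0.049, adjusted p = 1.56e-10). The former was between -0.239 and -0.18 and the latter between -0.668 and -0.561 over 21 alternatives each. For Fkbp5 the differences were 0.28 (SE 0.056, adjusted p = 0.000411) and 0.22 (SE 0.056, adjusted p = 0.00238), with ranges of 0.239 to 0.32 and 0.181 to 0.276. For Tsc22d3 the effect at 8 h minus that at 4 h was -0.443 (SE 0.108, adjusted p = 0.00263), with a range of -0.499 to -0.358. All 5 differences kept their direction and passed the test in each of the 21 alternatives, with a highest adjusted p of 0.022, for Fkbp5 between 24 and 8 h.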

How the results depend on the processing

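Under other settings, a member other than Esr1 counted as unchanged if it kept direction and call. Esr1, which had no call, counted as unchanged if it kept direction and moved by less than the SD between libraries of a group. A number of genes called counted as unchanged within 1.5 times. The setting at a false discovery rate of 0.25 reread the same fit, so no member could lose its call there. For the 5 members with enough counts, Esr1 among them, and the number of genes called at each time, 157 values were unchanged by these rules and 2 were not. Both concern Fkbp5 at 4 h, at -0.004 with library sizes alone (adjusted p = 0.932) and 0.04 with upper-quartile factors (adjusted p = 0.413). The 157 include the setting at 0.25 and the values of Esr1, for which that gene was chosen, so this count is a description only. Library sizes alone moved the median of all genes at 4 h by -0.101 and turned 4308 higher and 5152 lower calls into 3242 and 6495. With single libraries left out, the log2 fold change ranged from -0.256 to -0.148 for Tsc22d3 at 4 h (call lost in 3 of 6 fits), from 0.057 to 0.139 for Fkbp5 at 4 h (lost in 2 of 6), and from -3.506 to -2.937 for Esr1 at 8 h; the cause was not tested. Differences that were not called in the first place changed sign for Fkbp5 between 24 and 8 h with FGF6 (-0.001 without a filter, and from -0.009 to 0.047 with single libraries left out), for Nr3c2 there (from -0.196 to 0.385, below 0 without FGF6 replicate 2 at 24 h) and in vehicle between 8 and 4 h (from -0.386 to 0.06, above 0 without replicate 1 at 4 h). The change of Esr1 between 24 and 8 h with FGF6 was between -0.482 and 0.088, above 0 without replicate 1 at 8 h. Nr3c2 could not be given with at least 10 counts in every library. Counts of list genes changed by over 1.5 times for coregulators lower at 4 h (5 to 9 with library sizes alone) and at 24 h (5 to 3 with DESeq2 or only the times compared), other nuclear receptors higher at 4 h (5 to 3 with library sizes alone or upper-quartile factors, 8 at a false discovery rate of 0.25), and chaperones lower at 4 h (2 to 1 in 4 settings). Chaperones higher at 4 h, with Fkbp5 counted, went from 12 to 8 with library sizes alone.

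The replicate numbers share only a number. Same-numbered libraries correlated between -0.022 and 0.052 in their deviations from the group means, and 7 of 18 libraries correlated best with their own number. With the replicate number as a block, 9465, 10686, and 11116 genes were called at 4, 8, and 24 h, against 9460, 10664, and 11115, and Fkbp5 at 4 h had a log2 fold change of 0.10 (adjusted p = 0.0401). The block changed no call of the members. Depth limits Pgr and Nr3c2, with 0 to 7 and 4 to 36 counts per library.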

Other observations

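Of 34 genes that make, convert, or carry steroids, 18 had enough counts for a test, with 6 higher and 7 lower at 4 and at 8 h and 8 higher and 9 lower at 24 h (medians -0.11, -0.06, and -0.18 on the log2 scale), where 62.8%, 70.8%, and 73.8% of all genes were called. Hsd11b1, which regenerates active glucocorticoid, was at 0.435 ± 0.124 CPM with FGF6 and 0.785 ± 0.0745 in vehicle at 24 h (SD, n = 3). It was lower by the test (log2 fold change -0.84, edgeR adjusted p = 0.00663), after a value of 0.74 at 8 h (adjusted p = 0.000218). The aldo-keto reductase genes of progestin metabolism moved apart. Akr1c14 fell from 77.4 ± 5.97 to 4.04 ± 0.85 CPM at 24 h (log2 fold change -4.26, adjusted p = 1.73e-19), with 234 exonic bases shared with Gm18857 on the same strand. Akr1c18, which inactivates progesterone, had 0, 0, and 2 counts in vehicle and 21, 41, and 16 with FGF6 at 24 h. Star, the cholesterol carrier of steroid synthesis, rose by 1.07 at 4 h (adjusted p = 7.78e-05). It was not called at 8 h, and at 24 h it was called with overlapping groups. Abcb1a, an efflux pump that exports glucocorticoids, rose by 1.21 at 24 h (adjusted p = 1.6e-10). Abcb1a shares 553 of its 5480 exonic bases with Gm42686 on the other strand. Hsd17b7 rose by 0.24 at 4 h (adjusted p = 0.000116) and fell by 0.94 at 24 h (adjusted p = 2.47e-15).

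Receptor coregulators, all 20 tested, had 6 higher and 5 lower at 4 h, 6 and 8 at 8 h, and 10 and 5 at 24 h, or 55%, 70.0%, and 75% called, against 62.8%, 70.8%, and 73.8% of all genes. Ncoa1, the coactivator SRC-1, fell by 0.96 at 8 h (edgeR adjusted p = 1.97e-12), Prmt1 rose by 0.83 at 24 h (adjusted p = 2.9e-17), and Phb2 by 0.70 at 8 h (adjusted p = 2.56e-16). Of 39 other nuclear receptors, 26 were tested, with 5 higher and 9 lower at 4 h, 9 and 9 at 8 h, and 7 and 11 at 24 h, or 53.8%, 69.2%, and 69.2% called. At 24 h Vdr, the vitamin D receptor gene, fell by 2.73 (adjusted p = 5.09e-22), Pparg, the master regulator of adipogenesis, by 2.04 (adjusted p = 1.01e-21), Thra, which shares 263 exonic bases with Nr1d1 on the other strand, by 1.91 (adjusted p = 8.22e-23), and Nr4a3 by 1.61 (adjusted p = 5.63e-06).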
